A study of Mus musculus with 8 samples.

Results

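The cytosolic chaperonin CCT, also called TRiC, was examined in trophectoderm of mouse blastocysts whose dams had eaten either a control or a high fat diet. Its 8 subunits are encoded by Tcp1, Cct2, Cct3, Cct4, Cct5, Cct6a, Cct7 and Cct8. A subunit was taken from the array where the platform annotation gave a row that symbol alone, which held for 6 of the 8, among 14860 genes with such a row. Each of the 6 had 1 probe set, so no choice between rows was needed. Tcp1 and Cct6a were not analysed here. Expression was measured on 8 Affymetrix arrays, 4 per diet. Each array held RNA of 1 pool of trophectoderm from 5 blastocysts, cut from the side away from the inner cell mass on embryonic day 4.5. All dams were C57BL/6J females mated to C57BL/6J males, and the labels name no allele or drug. They ate a control chow (Lab Diet) or a high fat diet (Teklad) from weaning on, and were mated at the age of 16 weeks. The labels name the arrays biological replicates but do not say which dams gave which pool, so the p-values measure the spread between these pools. The values are log2 signals, on which a difference of 1 is a doubling. In a pool, fewer cells with a transcript and less transcript per cell cannot be told apart.

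CCT is a barrel of stacked rings in which each subunit holds a fixed place. It encloses unfolded proteins and, driven by ATP, lets them fold inside. Actin and tubulin depend on it, as do many proteins with WD repeats, so it serves the cytoskeleton and the cell cycle, both of which are active in an expanding, dividing epithelium such as trophectoderm. Work in yeast found that the subunits corresponding to Cct2, Cct4 and Cct5 bind ATP more strongly than those corresponding to Cct3, Cct7 and Cct8. Prefoldin hands newly made actin and tubulin to CCT, and phosducin-like proteins tune it or help it with particular substrates.

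The sequences in front of the genes are shown first, as the place to look for letters that the subunit genes share. RefSeq (build GRCm38.p6) gave a window for 7 of the 8 genes and for 5 of the 6 measured, all but Cct4. The 250 bases before the annotated start are given for Cct2 (chr10:117063853-117064102, minus strand), Cct3 (chr3:88296885-88297134, plus strand) and Cct7 (chr6:85451255-85451504, plus strand), 5′ to 3′ along the gene. Where a gene had several starts, the most upstream was used. Over all 8 pools, Cct2 and Cct3 were the subunits with the widest spread, and Cct7 stands beside them as a subunit with a narrower spread. The spread of Cct2 rests largely on 1 low value, in high fat diet replicate 3. In the control diet pools alone the SD was 0.37 for Cct2, 0.51 for Cct3 and 0.53 for Cct7. Capitals mark matches, on either strand, to the GC box GGGCGG or the CCAAT box CCAAT.
Cct2: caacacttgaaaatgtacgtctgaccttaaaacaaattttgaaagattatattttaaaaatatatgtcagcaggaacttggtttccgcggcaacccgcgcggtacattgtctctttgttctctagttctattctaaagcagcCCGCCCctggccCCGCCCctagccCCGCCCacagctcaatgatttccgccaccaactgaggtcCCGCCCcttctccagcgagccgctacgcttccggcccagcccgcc
Cct3: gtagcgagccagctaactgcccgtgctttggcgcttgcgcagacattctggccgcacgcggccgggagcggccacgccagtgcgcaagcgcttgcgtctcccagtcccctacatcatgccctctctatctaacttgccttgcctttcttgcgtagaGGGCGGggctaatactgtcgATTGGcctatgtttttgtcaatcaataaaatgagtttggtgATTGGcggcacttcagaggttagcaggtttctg
Cct7: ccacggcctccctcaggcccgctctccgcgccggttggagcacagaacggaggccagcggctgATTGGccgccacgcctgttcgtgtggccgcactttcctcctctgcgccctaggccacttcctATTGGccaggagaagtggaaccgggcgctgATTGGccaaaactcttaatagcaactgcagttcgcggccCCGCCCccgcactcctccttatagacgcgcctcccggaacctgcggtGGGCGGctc

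The Cct2 window held 4 GC boxes and 0 CCAAT boxes. The Cct3 window held 1 GC box and 2 CCAAT boxes, and the Cct7 window 2 and 3. No base lay in more than 1 of the motifs searched. A GC box was found in 5 of the 5 windows of measured subunits and in 32.75% of all 32841 windows of the same length. A CCAAT box was found in 2 of the 5 and in 33.86% of all windows. The E-box CACGTG, bound by MYC among other factors, was found in 0 of the 5 windows and in 6.02% of all windows. The pair of heat shock units TTCNNGAA was found in 1, that of Cct5, against 7.17% of all, and the pair GAANNTTC in 0, against 6.70%. TATAAA was found in 0, against 12.37%. GC content was 52.8%, 56.0% and 66.4% for Cct2, Cct3 and Cct7, beside a median of 52.4% over all windows. It was 45.2% for Cct5 and 58.0% for Cct8, whose windows are not printed. These are matches of letters and say nothing of what binds there.

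All 6 measured subunits were well above background on all 8 arrays. As background served, per array, the 95th percentile over 842 probe sets of chemosensory receptors. It ran from 5.88 to 6.13 on the control diet arrays and from 6.15 to 6.65 on the high fat diet arrays. A signal thus had to be higher on the high fat diet arrays to count as above background. The smallest distance of a subunit above background was 1.12, for Cct2 in high fat diet replicate 3. The table as a whole shifted with diet. The array medians were 5.65 ± 0.05 (SD, n = 4) and 5.83 ± 0.09 (SD, n = 4; exact two-sided permutation p = 0.0286, the smallest that 70 assignments can give). The median log2 change over 16015 tested probe sets was +0.22, against +0.03 with median centring, +0.06 when quantile normalized and -0.0012 by cyclic loess. Among them, the 1602 brightest, with a mean of at least 7.80, where all 6 subunits belong, had a median of -0.16. High fat diet replicate 3 stood apart from the others, with a mean correlation of 0.832 to the other arrays against 0.879 to 0.890. It had 4723 probe sets above background, against 5313 to 6635. The control diet arrays had 6311 ± 287 and the high fat diet arrays 5519 ± 628 (SD, n = 4 each; exact permutation p = 0.0857). These counts were made against unequal cutoffs, higher on the high fat diet arrays. Of the 11 trophectoderm markers listed, 9 were measured and 7 were above background on all arrays, among them Cdx2 (7.64 ± 0.26 in control and 7.72 ± 0.27 in high fat pools, SD, n = 4 each) and Krt18. Elf5 and Tfap2c were not above it on every array. Gata3, another of the 7, read at 11.14 ± 0.26 and 9.65 ± 1.22 (SD, n = 4 each), with the groups apart (limma adjusted p = 0.132). Fgfr2, also among the 7, changed by -1.78, with overlapping groups (limma adjusted p = 0.115). It was picked out after its values were seen. Gata3 and Fgfr2 were the 2 of 9 markers (22.2%) lower at a limma unadjusted p under 0.05, and 0 were higher. Among all tested probe sets, 1.79% were lower at that p. Separate groups with lower high fat diet values occurred in 0.855% of all tested probe sets. Gata3 and Fgfr2 belong to the 1602 brightest, of which 60.1% lay below 0, while 78.7% of all tested probe sets lay above 0. The share lower at that p among the brightest alone is not given here.

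None of the 6 subunits differed between the diets by more than the pools varied. In limma's test across all probe sets, 0 of 6 passed the adjusted threshold of 0.05, where 0.00624% of all tested probe sets passed (1 probe set, no subunit). At an unadjusted p under 0.05, 0 of 6 read higher and 0 of 6 lower, beside 30.1% and 1.79% of all tested probe sets. In other settings 2 such p-values arose, 0.0187 for Cct4 with quantile normalization (limma adjusted p = 0.364) and 0.0413 for Cct3 without high fat diet replicate 4 (limma adjusted p = 0.194). The diet groups overlapped on all 6, while over all probe sets they lay apart in the higher direction on 25.4% and in the lower direction on 0.855%. The measured log2 changes ran from -0.69 for Cct3 to +0.32 for Cct4, with a median of -0.08. Of the 6, 4 lay below 0, and 5 read under the median of all tested probe sets. Against the median of the 1602 brightest probe sets, -0.16, only Cct2 and Cct3 read lower. The number below 0 was 5 with median centring, 3 with quantile normalization and 2 with cyclic loess, so the complex as a whole had no direction that held under every scaling. Cct3 stayed below 0 and Cct4 above 0 in the 13 other settings in which the change can take another value.

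**Figure D1:**
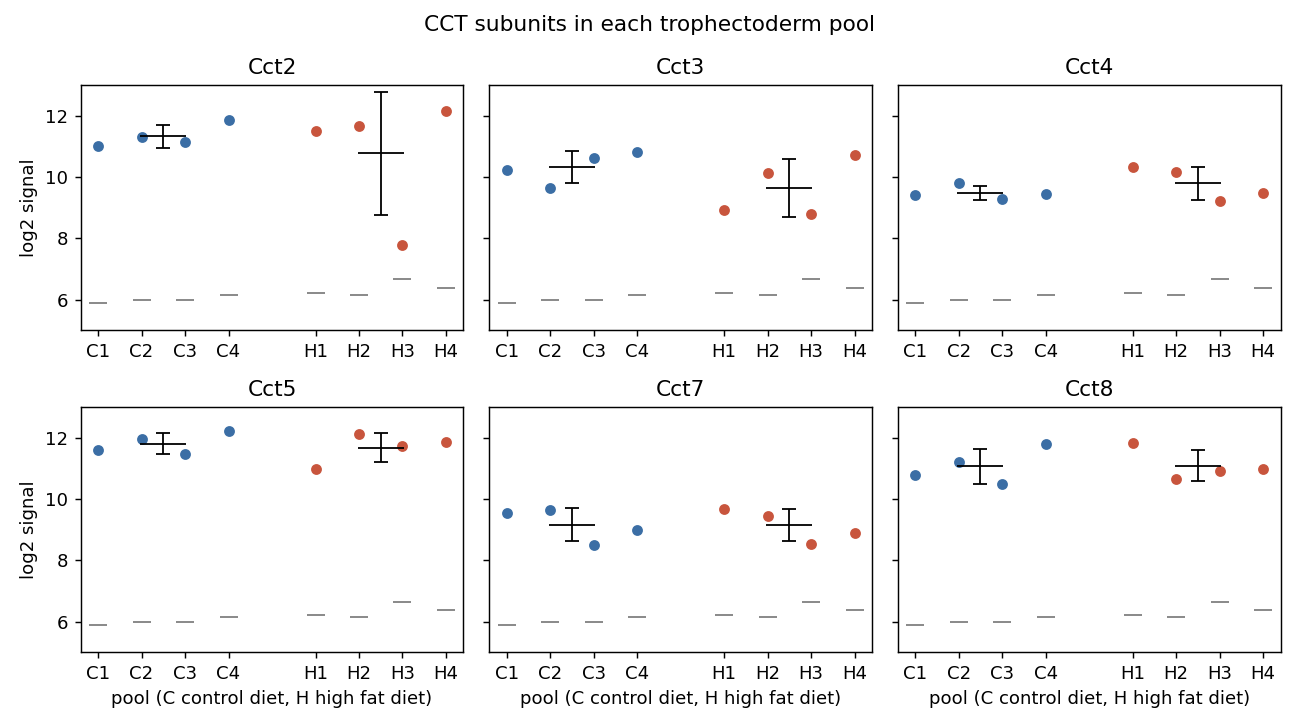
Log2 signal (vertical axis) of the 6 measured subunits in each pool, with control diet pools in blue (C1 to C4) and high fat diet pools in red (H1 to H4). Black bars give the group mean and SD (n = 4), and grey dashes the receptors' 95th percentile on that array. Every point lies above its dash, and Cct2 has 1 low point, 7.77 in high fat diet replicate 3.

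Among the subunits that bind ATP strongly in yeast, Cct2 showed the widest spread. Cct2 read at 11.02, 11.30, 11.13 and 11.86 in the control diet pools and at 11.48, 11.67, 7.77 and 12.14 in the high fat diet pools. The low value belongs to high fat diet replicate 3, and the other 3 high fat diet pools lay within or above the control diet range. The group means were 11.33 ± 0.37 and 10.77 ± 2.01 (SD, n = 4 each), a log2 change of -0.56 with an SE of 0.91 and a 95% interval from -2.68 to 1.56 (limma adjusted p = 0.665). The SD of the high fat diet pools was larger than that of 97.69% of all tested probe sets. For the other subunits this share ran from 83.3% to 91.85%, and for Cct2 in the control diet pools it was 77.22%. Without high fat diet replicate 3 the sign turned, to +0.44 (limma adjusted p = 0.299). The difference of the group medians, an alternative chosen after the values were seen, was +0.36. The direction of Cct2 thus rests on 1 pool.

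Cct4, a subunit that contacts folding actin, read at 9.41, 9.80, 9.27 and 9.43 with the control diet and at 10.33, 10.17, 9.21 and 9.46 with the high fat diet. High fat diet replicates 1 and 2 were above every control diet pool, and the other high fat diet pools lay inside or just under the control diet range. The log2 change was +0.32 with an SE of 0.27 and a 95% interval from -0.31 to 0.94 (limma adjusted p = 0.412). Over the settings run it ranged from +0.13 with median centring to +0.57 with quantile normalization, and the lowest adjusted p was 0.199, with array weights.

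Cct5, which in human patients has been linked to a sensory neuropathy, had nearly equal means. Its signals were 11.60, 11.96, 11.45 and 12.21 with the control diet and 10.99, 12.12, 11.72 and 11.87 with the high fat diet. High fat diet replicate 1 was the lowest of all 8 pools, and the other 3 lay inside the control diet range. The log2 change was -0.13 with an SE of 0.27 and a 95% interval from -0.76 to 0.50 (limma adjusted p = 0.736), and +0.18 with cyclic loess. In fold terms the interval allows anything from 0.591 to 1.41 times the control diet level.

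Among the subunits that bind ATP weakly in yeast, Cct3 had the largest difference of the 6. Cct3 read at 10.22, 9.65, 10.61 and 10.82 with the control diet and at 8.92, 10.13, 8.78 and 10.70 with the high fat diet. High fat diet replicates 1 and 3 were below every control diet pool, while replicates 2 and 4 lay among them. The means were 10.32 ± 0.51 and 9.63 ± 0.94 (SD, n = 4 each), a log2 change of -0.69 with an SE of 0.48 and a 95% interval from -1.80 to 0.42 (limma adjusted p = 0.319). This corresponds to 0.620 times the control diet level, with an interval from 0.287 to 1.34. Leaving out 1 pool at a time gave changes from -1.05, without high fat diet replicate 4, to -0.41, without high fat diet replicate 3, and the lowest adjusted p over all settings was 0.194.

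Cct7 read at 9.53, 9.63, 8.49 and 9.002 with the control diet and at 9.68, 9.45, 8.53 and 8.88 with the high fat diet. Each group held high and low pools over the same range. The log2 change of Cct7 was -0.03 with an SE of 0.34 and a 95% interval from -0.81 to 0.75 (limma adjusted p = 0.953). It was +0.24 with quantile normalization and +0.02 with cyclic loess.

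Cct8 read at 10.79, 11.19, 10.48 and 11.78 with the control diet and at 11.83, 10.66, 10.90 and 10.97 with the high fat diet. All high fat diet pools but replicate 1 lay within the control diet range, and replicate 1 was only just above it. The log2 change of Cct8 was +0.03 with an SE of 0.34 and a 95% interval from -0.77 to 0.83 (limma adjusted p = 0.958), and -0.16 with median centring.

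**Figure D2:**
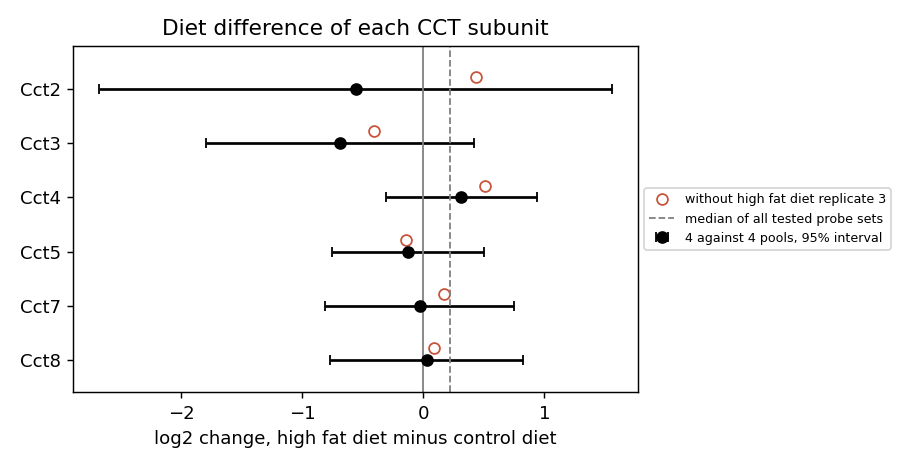
Log2 change, high fat diet minus control diet (horizontal axis), of each subunit with its 95% interval from limma (black, 4 against 4 pools) and without high fat diet replicate 3 (open red). The grey line is 0 and the dashed line the median of all tested probe sets, +0.22. Each of the 6 intervals holds 0, and only Cct2 and Cct7 change sign without that pool.

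The low Cct2 value was one of many lone low values on the same array. Of 8008 probe sets at or above the median level, 136 read at least 2 log2 units below all other pools in high fat diet replicate 3. On the other arrays 1 to 14 probe sets did so. In the opposite direction, 21 read at least 2 log2 units above all other pools in that replicate, against 26 to 43 on the other arrays. By Dixon's criterion, which sets the gap of 1 pool to the next against the range of its diet group, over all 16015 probe sets and at any size of gap, the same pool held 96 lone lowest and 736 lone highest values. The gap of Cct2 to the next lowest pool was 3.25, and 40 probe sets on that array had a gap at least as large. This count was made after the values were seen. The part that this array's quality, depth or cell content had in the Cct2 value was not tested. Its inner cell mass markers, as the mean of 7 genes centred over the arrays, stood at +0.01, inside the range of the other high fat diet pools (-0.10 to +0.22). Its trophectoderm markers, 9 genes, stood at +0.04, also inside the range of the others (-0.60 to +0.19). On the other 3 marker lists it was the highest of all 8 pools. Primitive endoderm markers stood at +0.31 there, against at most +0.08 elsewhere, uterine markers at +0.40 against at most +0.08, and blood markers at +0.29 against at most +0.16. The same array also had the highest median, 5.96 against at most 5.83 elsewhere, and the highest background, 6.65. Of the genes measured on these lists, 2 of 6, 4 of 6 and 3 of 4 were above background on no array.

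**Figure D3:**
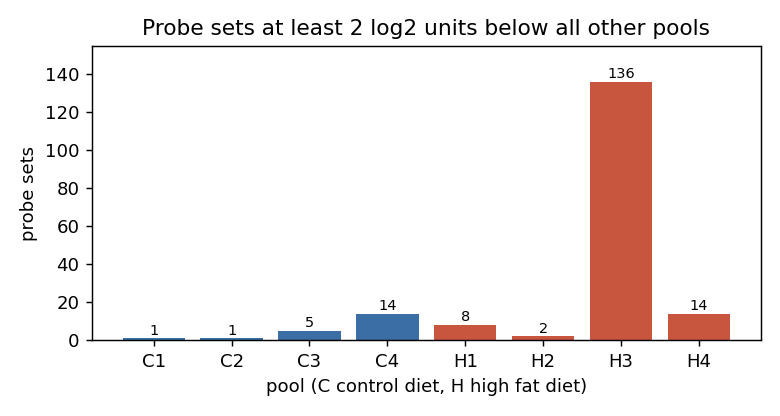
Number of probe sets (vertical axis, of 8008 at or above the median level) that read at least 2 log2 units lower in a pool than in any other pool, for control diet pools (blue) and high fat diet pools (red). High fat diet replicate 3 has 136, and the other 7 pools have 1 to 14.

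Subunits were next set against each other on the same array, which removes any shift that an array gives to all of them. The mean of the 6 subunits was subtracted from each on its array, a description without a test. Cct4 then differed between diets by +0.49 (-1.05 ± 0.27 against -0.56 ± 0.46, SD, n = 4 each) and Cct3 by -0.51. Cct2 differed by -0.38, Cct8 by +0.20, Cct7 by +0.15 and Cct5 by +0.05. Since the mean holds Cct2 itself, its low value in high fat diet replicate 3 raises the other 5 there. Without that pool the differences were +0.40 for Cct4, -0.52 for Cct3, +0.33 for Cct2, -0.02 for Cct8, +0.06 for Cct7 and -0.26 for Cct5. The values of Cct4 and Cct3 were thus about as far apart with and without it. The SD of this relative signal over the 8 arrays was 0.97 for Cct2, 0.63 for Cct3 and 0.44 to 0.53 for the other 4. With the median of the subunits as the reference in place of the mean, the difference was +0.80 for Cct4, -0.21 for Cct3, -0.08 for Cct2, +0.35 for Cct5, +0.45 for Cct7 and +0.51 for Cct8.

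**Figure D4:**
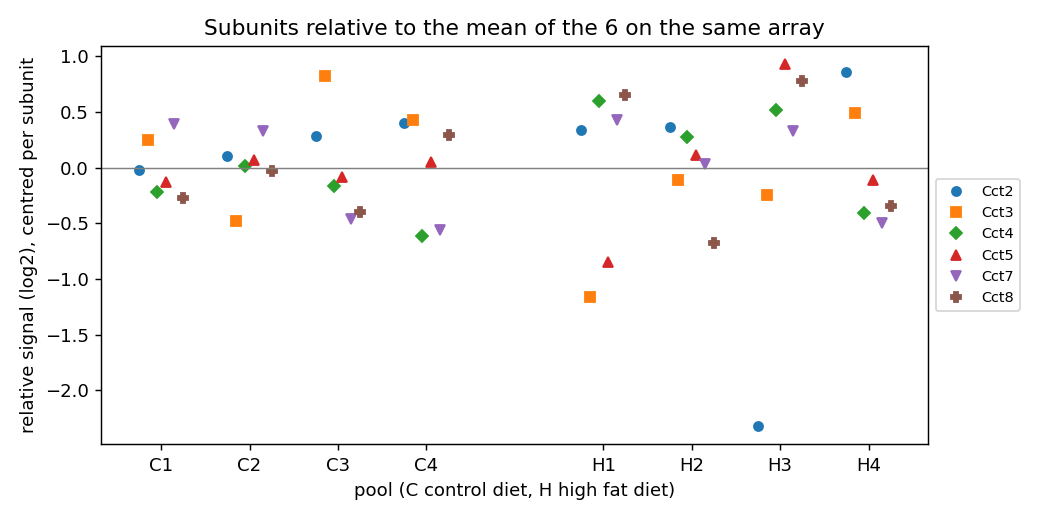
Signal of each subunit minus the mean of the 6 on the same array, centred on its own mean over the 8 pools (vertical axis, log2), for control diet pools (C1 to C4) and high fat diet pools (H1 to H4). Control diet points stay between -0.62 and +0.83, while Cct2 lies at -2.32 in high fat diet replicate 3 and Cct3 at -1.16 in replicate 1.

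From pool to pool the subunits did not vary as a block. Over the 15 pairs of subunits, Pearson's r across the 8 arrays had a median of 0.23 and ran from -0.33 for Cct3 with Cct4 to 0.77 for Cct4 with Cct7, and Spearman's rho had a median of 0.38. These correlations are descriptions over 8 arrays that share the diet difference and each array's quality. Without high fat diet replicate 3 the median Pearson r was 0.10, Cct3 with Cct4 stood at -0.81 and Cct4 with Cct7 at 0.71. With deviations from the diet means, Cct4 with Cct7 stood at 0.85 and was the most alike pair. Cct2 with Cct3 went from 0.66 to 0.31 without high fat diet replicate 3.

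The genes whose signal over the 8 arrays most resembled the mean of the centred subunits, among 7424 genes at or above the median level, were Txnl1 (r = 0.98), Hmgb1 (0.98), Rlim (0.96), Rad21 (0.96) and Psmc5 (0.96). Txnl1 is a thioredoxin-like protein of the proteasome, Hmgb1 a chromatin protein, Rlim a ubiquitin ligase, Rad21 a subunit of cohesin and Psmc5 an ATPase of the proteasome. All 5 were lowest in high fat diet replicate 3, which follows from their choice, since the subunits' centred mean was itself lowest there (-0.95). Psmc5 read at 11.80, 12.19, 11.50 and 12.52 with the control diet and at 12.20, 12.08, 6.66 and 12.49 with the high fat diet. Without high fat diet replicate 3 the r values lay between 0.75 for Rad21 and 0.91 for Psmc5, for genes chosen with that pool included. None of the 5 passed the limma threshold, with adjusted p-values from 0.521 to 0.793.

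The partners that bring substrates to CCT or act with it were read from lists of known genes. Over 9 lists, 56 of 73 genes were measured, and 0 passed the limma threshold in either direction. At an unadjusted p under 0.05, 15 read higher (26.8%) and 2 lower (3.57%), shares close to those of all tested probe sets given above. The median log2 change of the 56 was +0.23, beside +0.22 for all tested probe sets.

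Prefoldin and its relatives had 8 of 9 genes measured, with a median change of +0.12, which was -0.07 with median centring, -0.0010 with quantile normalization, +0.03 with cyclic loess and -0.08 without high fat diet replicate 1. Pfdn6, a subunit of prefoldin, differed most. Pfdn6 read at 11.13, 10.45, 11.26 and 10.23 with the control diet and at 12.28, 11.57, 10.93 and 12.54 with the high fat diet. All high fat diet pools but replicate 3 lay above every control diet pool. The log2 change was +1.06 with an SE of 0.40 (limma adjusted p = 0.131), and between +0.88 and +1.33 under the other scalings. Pfdn2 (+0.11) and Pfdn1 (+0.25), which sit in the same hexamer, differed by less than their pools varied, and Pfdn2 turned negative with median centring (-0.08).

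Of the CCT co-chaperones, 5 of 6 genes were measured, with a median change of +0.15, which turned to -0.04, -0.0054 and -0.0052 with median centring, quantile normalization and cyclic loess. Pdcl3, a phosducin-like protein that binds CCT, read at 11.22, 10.85, 10.86 and 11.27 with the control diet and at 11.20, 11.37, 11.64 and 11.53 with the high fat diet. Only high fat diet replicate 1 lay inside the control diet range. The change of Pdcl3 was +0.38 with an SE of 0.14 (limma adjusted p = 0.133). Pdcd5, a CCT-binding protein known from cell death, differed by +0.43 (limma adjusted p = 0.153). Pdcl, which helps CCT fold G protein beta subunits, differed by -1.32. It exceeded background in only 2 of the 8 pools, both on the control diet, where the background was lower.

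Actins and tubulins are the main clients of CCT. Over all tested probe sets, 78.7% lay above 0 in the main analysis, with a median of +0.22. That median was +0.03 with median centring, +0.06 with quantile normalization and -0.0012 with cyclic loess. All 4 measured actins read higher with the high fat diet under every scaling run, with a median of +0.33 that was +0.15 with median centring, +0.20 with quantile normalization and +0.15 with cyclic loess. None passed the limma threshold. Actb, the cytoplasmic beta actin, read at 13.75, 13.24, 13.59 and 13.47 with the control diet and at 14.06, 13.91, 13.69 and 13.76 with the high fat diet. The groups overlapped only through control diet replicate 1 and high fat diet replicate 3. The change of Actb was +0.34 with an SE of 0.14 (limma adjusted p = 0.14). Acta1, the skeletal muscle actin, differed by +0.43 (limma adjusted p = 0.122), and Acta2, the smooth muscle actin, by +0.33. Acta2 and the remaining actin, Actg2 (+0.29), were above background on 0 of 8 arrays. Actin and tubulin genes resemble each other closely in sequence, so a probe set may read more than its own gene. Of 18 tubulins, 11 were measured, with a median change of +0.26, which was +0.07 with median centring and with quantile normalization, and -0.0008 with cyclic loess. Of the 11, 2 were above background on all 8 arrays and 5 on none. Over the 6 tubulins at or above the median level of the tested probe sets, the median change was +0.04. Tubg1 (+0.48), Tube1 (+0.45) and Tubg2 (+0.26), members of the gamma and epsilon families of the centrosome, had the smallest p-values of the list and were above background on 0 of 8 arrays, and the sign of Tubg2 turned with cyclic loess. The tubulin cofactors, which join tubulin into dimers after CCT, had a median of +0.42 over 5 genes, and of +0.24, +0.32 and +0.12 under the same 3 scalings. Their leading genes by p were Arl2 (+0.29, and -0.0078 with cyclic loess), Tbcd (+0.10, negative under every other scaling, above background on 0 of 8 arrays) and Tbce (+0.97, above background on 1 of 8 arrays).

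**Figure D5:**
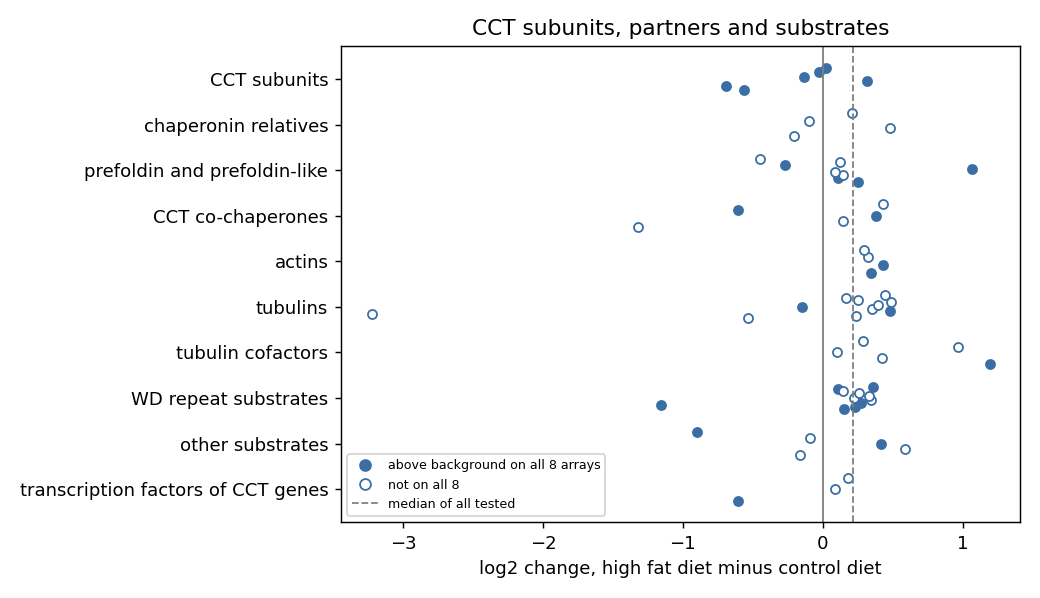
Log2 change, high fat diet minus control diet (horizontal axis), of every measured gene in the CCT list and 9 partner and substrate lists (rows). Filled points are genes above background on all 8 arrays, open points the others. The dashed line is the median of all tested probe sets, +0.22, around which most partner genes lie, while 5 of the 6 subunits lie to its left. The 1602 brightest probe sets, where all 6 subunits belong, had a median of -0.16, and only Cct2 and Cct3 lie left of that. Of the 56 partner genes, 20 were above background on all 8 arrays.

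Clients with WD repeats had 11 of 12 genes measured and a median change of +0.23, which was +0.05, +0.07 and +0.03 with median centring, quantile normalization and cyclic loess. Gnb5 (+0.33), Wrap53 (+0.36) and Gnb3 (+0.35) had the smallest p-values, with limma adjusted p from 0.115 to 0.117. Wrap53, a telomerase-binding protein that needs CCT to fold, was above background on all 8 arrays, by as little as 0.01, and Gnb3 and Gnb5, G protein beta subunits, on 0 of 8. Among other clients, Stat3, a signalling transcription factor, read at 8.40, 7.36, 8.78 and 7.74 with the control diet and at 7.40, 7.34, 6.66 and 7.30 with the high fat diet. The groups overlapped through control diet replicate 2. The change of Stat3 was -0.90 with an SE of 0.33 (limma adjusted p = 0.129). Plk1, a mitotic kinase, differed by +0.42, and Vhl, a tumour suppressor, by +0.59, with limma adjusted p-values of 0.200 and 0.336.

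Heat shock factors have been linked to the expression of CCT genes in mammalian cells. Hsf2 read at 8.99, 8.39, 7.89 and 8.50 with the control diet and at 7.43, 7.94, 7.89 and 8.08 with the high fat diet. Control diet replicate 3 lay among the high fat diet pools, and the other 3 control diet pools lay above all of them. The change of Hsf2 was -0.61 with an SE of 0.24 (limma adjusted p = 0.143), and between -0.79 and -0.36 under the other scalings. Myc (+0.09) was above background on 0 of 8 arrays and Mycn (+0.18) on 4 of 8, and the signs of both turned under every other scaling. Among the relatives of CCT, Cct6b, a paralog known from testis, read at 6.01 ± 0.38 and 5.81 ± 0.54 (SD, n = 4 each) and was above background on 2 of 8 arrays. Cct8l1 (+0.48) and Bbs12 (+0.21), a chaperonin-like protein of the Bardet-Biedl group, were above it on 0 of 8.

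Markers of other cell types varied between pools of the same diet. The centred mean of 7 inner cell mass markers ran from -0.76 to +1.18 over control diet pools and from -0.10 to +0.22 over high fat diet pools. The top value was control diet replicate 2, in which all 6 subunits lay between the lowest and the highest values of the other pools. In that pool Tdgf1 read at 10.33, against at most 5.45 elsewhere, and Pou5f1 at 11.72, against at most 9.66. Sox2 was also highest there, at 4.95 against at most 4.89. Nanog, Klf2, Fgf4 and Esrrb lay inside the range of the other pools. Of the 7, 3 (42.9%) read higher at a limma unadjusted p under 0.05 and had groups apart. They were Klf2 (+0.64), Fgf4 (+0.75) and Esrrb (+0.35), each with a limma adjusted p of 0.115. Of all tested probe sets, 30.1% read higher at that unadjusted p, and 25.4% had groups apart in the higher direction. With median centring, quantile normalization and cyclic loess, Klf2 changed by +0.45, +0.56 and +0.36. Under the same scalings Fgf4 changed by +0.57, +1.01 and +0.59, and Esrrb by +0.16, +0.16 and +0.11. These 3 genes were picked out after their values were seen. Fgf4, Klf2 and Pou5f1 were above background on all 8 arrays, and Esrrb on 0 of 8. Sox2, a defining marker, was above background on 0 of 8 arrays, and Nanog on 7 of 8 (7.34 ± 1.14 and 6.89 ± 0.60, SD, n = 4 each). The 6 primitive endoderm markers, Gata6 among them (+0.31), ran from -0.20 to -0.03 with the control diet and from +0.01 to +0.31 with the high fat diet. The 6 uterine markers ran from -0.26 to -0.09 and from +0.04 to +0.40, and the 4 measured of 7 blood markers from -0.20 to -0.10 and from +0.06 to +0.29. On these 3 lists the groups lay apart in the direction of the shift of the whole table, and 2, 4 and 3 of their genes were above background on no array. The part of such cells in the subunits' values was not tested.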

How the data were processed

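Trophectoderm RNA of 8 pools was measured on Affymetrix arrays. The authors deposited 1 table of log2 signals, made with RMA and Partek per the submitters' processing notes. For the versions, the RMA settings and the genome build, the sources used here give nothing. The table held 23332 probe sets and 0 columns of other samples. The platform annotation gave 1 symbol to 14996 probe sets, several to 1019 and none to 7317. The 16015 with a symbol were tested with limma 3.58.1 in R 4.3.3, high fat diet against control diet, with Benjamini-Hochberg adjustment over all of them. The test was run first on simulated data. No value was rescaled in the main analysis. A gene counted as above background above the 95th percentile of the chemosensory receptors on that array.

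The subunits and gene lists were chosen with earlier results of these data known. Named were the subunits, the 3 genes of smallest p per partner list, set marker and control genes, and the 5 genes most like the subunits' mean. The labels state no pairing of pools by replicate number. Same-number correlations of deviations were 0.033, -0.0193, 0.0115 and 0.0841, beside -0.0975 to 0.0713 for different numbers. Correlations this weak over whole arrays cannot decide whether pools were paired. Alternatives varied which probe sets entered, the scaling, the variance model, array weights, the background percentile and the reference subunit, or left out 1 pool. The number of arrays limits the precision.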

Additional observations from a re-analysis of the deposited data

Results flagged for a closer look

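In 8 of 92 tests of 4 pools each, 1 pool lay far from the other 3 of its diet by Dixon's criterion, which chance meets in about 1 in 20 groups. That is 8.70% of the tests, beside 8.14% of the 32030 such groups over all tested probe sets. Cct2 read at 7.77 in high fat diet replicate 3, against 11.48 to 12.14 in the other high fat diet pools. Stat3 read at 6.66 there (others 7.30 to 7.40) and Tubg2 at 5.91 (others 5.70 to 5.72). Tbce read at 8.13 in high fat diet replicate 2, against 4.47 to 4.98. Of the genes chosen for resembling the subunits' mean, which is itself lowest in high fat diet replicate 3, 4 met the criterion in that pool. Txnl1 read at 4.37 (others 10.92 to 11.12), Hmgb1 at 7.13 (others 11.31 to 11.79), Rad21 at 10.19 (others 11.99 to 12.30) and Psmc5 at 6.66 (others 12.08 to 12.49).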

How the results depend on the processing

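The count of subunits past the threshold was 0 in all 18 other settings, as was the count of partner genes. Over all probe sets, the count higher was 1 with no variance moderation, against 0. The count lower, 1 in the main analysis, was 3 with all probe sets tested, 0 with quantile normalization, cyclic loess or no variance moderation, and 0 to 2 with 1 pool left out. Cct3 and Cct4 kept their sign in the 13 settings that can move the change, while 6 leave it the same number. Cct2 turned to +0.18 with array weights and +0.36 with group medians, and ran from -1.02 to +0.44 with 1 pool left out. Cct5 turned to +0.18 with cyclic loess and +0.012 with group medians, and ran from -0.28 to +0.10. Cct7 turned to +0.24 with quantile normalization, +0.017 with cyclic loess and +0.16 with array weights, and ran from -0.25 to +0.17. Cct8 turned to -0.16 with median centring and -0.059 with group medians, and ran from -0.22 to +0.27. The group medians were chosen after seeing the data. The difference in array medians ran from 0.14 to 0.21 with 1 pool left out (exact permutation p = 0.0571, the smallest that 3 against 4 pools allow). Probe sets above background differed by -792.75 (exact permutation p = 0.0857), by -793.5 with the 99th percentile (exact permutation p = 0.0286) and by -980.9 to -527.6 with 1 pool left out (exact permutation p from 0.0571 to 0.1714). With the replicate block, although the labels state no pairing, 0 of 6 subunits and 0 probe sets lower passed. The cause of these differences was not tested. A mean over several probe sets was not run, since each subunit had 1.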

Other observations

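Some partner genes, chosen here after their values were seen, varied widely between pools of the same diet. Txndc9, a phosducin-like protein, read at 6.64, 9.97, 8.76 and 7.24 with the control diet and at 6.87, 6.47, 6.91 and 9.93 with the high fat diet. Pdrg1, a prefoldin-like protein, read at 5.61, 10.72, 9.43 and 6.43 and at 7.63, 5.67, 6.46 and 10.64. Both were highest in control diet replicates 2 and 3 and high fat diet replicate 4. Tubb2a, a beta tubulin, read at 3.57, 11.95, 3.36 and 12.40 and at 3.55, 4.06, 3.58 and 7.21. Vbp1, a prefoldin subunit, and Gnb1, a G protein beta subunit, were lowest in high fat diet replicate 3, at 4.78 and 7.06.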
